A study of Mus musculus with 14 samples.

Results

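The expression of 8 genes of acid and ammonia transport was followed through the RNA-Seq counts of MAPK/ERK-deficient and control embryonic kidney cells. They are the ammonia transporters Rhcg and Rhbg, the carbonic anhydrases Car2 and Car12, the transcription factor Foxi1, the proton-pump subunits Atp6v1b1 and Atp6v0d2, and the anion exchanger Slc4a1. They were a fixed list, chosen with earlier results of these data known. They were matched by Ensembl identifier among 55335 genes counted in the ureteric bud (UB) and 52636 counted in the metanephric mesenchyme (MM). The UB libraries hold GFP-sorted cells of E12.5 kidneys, 4 control and 4 UB dko, and the MM libraries hold GFP-sorted nephron progenitor cells of E13.5 kidneys, 3 control and 3 MM dko, each library from both kidneys of an embryo on a mixed C57BL6/Rcc and 129/SvEv background. All UB embryos carried HoxB7Cre-GFP, which drives Cre in the ureteric bud and its derivatives, and all MM embryos carried Six2-TGC, which drives Cre in nephron progenitors. The UB dko and MM dko were Mek1fl/fl;Mek2-/-, so that Mek2 was missing from the whole embryo and Mek1 only where Cre was active. UB controls 1, 3 and 4 were Mek1fl/+;Mek2+/-, whereas UB control 2 and the MM controls were Mek1fl/+;Mek2+/+, as labelled. The methods also list Mek2+/- embryos among the MM controls and Mek1+/+;Mek2+/- embryos among the UB controls, which no label gives. The comparison asks how these genes differ between cells with and without the kinases that activate ERK.

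Each UB library held 4857053 to 7493144 counts, and the MM libraries held 5880919 to 6442484 in the controls and 1443582 to 3438297 in the MM dko, the shallowest group. Map2k2 (Mek2) stood at 32.6 to 65.3 CPM (reads scaled by the TMM effective library size) in the UB controls and at 46.0, 7.11, 49.4 and 10.8 CPM in UB dko 1 to 4. The libraries labelled dko 1 and dko 3 therefore lay within the control range. Map2k1 (Mek1), the gene that Cre deletes, was at 20.5 to 29.99 CPM in the controls and at 38.6, 29.9, 27.8 and 34.6 CPM in UB dko 1 to 4, so no dko library lay below the controls. For both genes a whole-gene count may take in reads outside the deleted exons. In the MM, Map2k2 was at 45.8 to 60.5 CPM in the controls and at 2.46 to 5.37 CPM in the MM dko. Why Map2k2 differed between the UB dko libraries was not tested. Etv5, a transcription factor induced through ERK, was at 162.7 to 229 CPM in the controls and at 49.5, 31.06, 21.3 and 38.2 CPM in UB dko 1 to 4, below every control. The UB dko libraries also differed in composition. The GC-poorest of 5 bins of genes exceeded the GC-richest by 2.27 and 1.62 on the log2 scale in UB dko 2 and 4 (controls -0.28 to 0.46), and by 2.20 to 3.23 in the MM dko. In the libraries labelled dko 1 and dko 3 the difference was -0.19 and -0.26. The dko libraries low in Map2k2 were thus those with this GC trend. The part of the trend in the low Map2k2 counts was not tested. The ribosomal-overlapping transcript Gm42418 took 32.5% of the counts in the library labelled dko 3 and 3.26 to 4.65% elsewhere in the UB. Stromal and nephron progenitor transcripts were highest in the library labelled dko 1, where 9 stromal markers summed to 105.6 CPM against 18.5 to 64.2 CPM in the other UB libraries. Over 12 ureteric epithelium markers the sum was 3589 to 4115 CPM in the UB controls and 3065 to 3575 CPM in the UB dko, every dko library below every control. The share of all genes in that order was not computed. The median log2 fold change of dko over control was -0.01 across these 12 genes, against 0.06 over all genes tested. UB results for the tested members are given with and without the libraries labelled dko 1 and dko 3.

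Intercalated cells are the acid-base cells of the collecting duct, the tree that grows from the ureteric bud. Their carbonic anhydrase hydrates carbon dioxide to a proton and bicarbonate, the vacuolar-type proton pump (V-ATPase) carries the proton across the apical membrane, and an anion exchanger returns the bicarbonate to the blood in the acid-secreting type of cell. Ammonia, made from glutamine in the proximal tubule, crosses the collecting duct through Rh glycoproteins and traps the secreted proton as ammonium in the urine. Foxi1 is the forkhead factor that intercalated cells need, and it is known to activate several of the genes above. Mature intercalated cells appear later in development than the stages sampled here.

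The 4 members with a promoter in the RefSeq table of GRCm38.p6 are shown first, since Foxi1 is itself a member and binds DNA at forkhead sites. Each window runs from 250 bases before to 50 bases after the RefSeq gene start, 5′ to 3′ on the gene's own strand. For Atp6v1b1 this start differs from that of the gene coordinates given below. Capitals mark the forkhead core TGTTTAC. The Rhcg window is chr7:79617608-79617907 on the minus strand, that of Car12 chr9:66713436-66713735 on the plus strand, that of Foxi1 chr11:34208040-34208339 on the minus strand, and that of Atp6v1b1 chr6:83742767-83743066 on the plus strand.
Rhcg promoter: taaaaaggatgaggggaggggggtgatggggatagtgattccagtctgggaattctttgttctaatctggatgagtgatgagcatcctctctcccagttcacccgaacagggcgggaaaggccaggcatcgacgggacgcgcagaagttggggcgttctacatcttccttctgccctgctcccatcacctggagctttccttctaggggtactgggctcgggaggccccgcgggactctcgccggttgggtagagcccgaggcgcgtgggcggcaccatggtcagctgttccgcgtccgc
Car12 promoter: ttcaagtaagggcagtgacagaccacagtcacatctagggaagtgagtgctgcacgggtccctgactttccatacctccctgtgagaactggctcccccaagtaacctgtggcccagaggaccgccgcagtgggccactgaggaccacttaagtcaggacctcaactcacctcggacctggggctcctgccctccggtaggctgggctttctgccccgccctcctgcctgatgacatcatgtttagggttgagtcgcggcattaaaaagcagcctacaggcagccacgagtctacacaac
Foxi1 promoter: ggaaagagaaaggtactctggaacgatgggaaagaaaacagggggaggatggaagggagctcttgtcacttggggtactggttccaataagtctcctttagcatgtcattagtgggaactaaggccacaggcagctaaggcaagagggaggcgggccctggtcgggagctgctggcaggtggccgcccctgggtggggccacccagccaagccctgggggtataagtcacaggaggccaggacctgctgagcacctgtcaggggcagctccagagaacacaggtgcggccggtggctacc
Atp6v1b1 promoter: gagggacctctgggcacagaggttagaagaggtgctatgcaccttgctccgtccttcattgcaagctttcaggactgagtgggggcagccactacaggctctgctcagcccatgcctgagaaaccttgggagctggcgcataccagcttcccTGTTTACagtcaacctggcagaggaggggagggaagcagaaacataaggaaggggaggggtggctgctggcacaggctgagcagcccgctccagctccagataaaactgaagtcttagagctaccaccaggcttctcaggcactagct

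The core was searched as TGTTTAC on both strands. The Atp6v1b1 window held 1 match, starting at position -98 from the RefSeq start, and the windows of Rhcg, Car12 and Foxi1 held none. Of all 32851 promoters of the same length, 3.65% held the core. The match describes the letters of the window and nothing was drawn from it about binding.

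Per kilobase of merged exons, the control UB held Car2 at the highest level of the 8, at 5.88 ± 0.478 CPM per kb (SD, n = 4). Rhcg followed at 1.94 ± 1.31 and Car12 at 1.84 ± 0.367 CPM per kb, and the ranges of these neighbours overlapped. Foxi1 stood at 0.678 ± 0.555 CPM per kb, and the other members at or below 0.0574 CPM per kb. In the UB dko the order changed at the top, with Rhcg at 13.7 ± 7.24 CPM per kb (n = 4), Car12 at 4.21 ± 0.996, Car2 at 4.16 ± 3.62 and Foxi1 at 3.15 ± 2.80. Apart from Rhcg and Car12, whose ranges did not overlap, each of these neighbours overlapped the next. Atp6v0d2 was next, at 0.951 ± 0.767 CPM per kb.

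Rhcg and Car12 rose in the UB dko. Of the 8 members, 4 had enough counts for the test (Rhcg, Car2, Car12 and Foxi1), and Rhbg, Atp6v1b1, Atp6v0d2 and Slc4a1 did not. UB dko was compared with control by edgeR's quasi-likelihood test on all 13425 genes with enough counts, with Benjamini-Hochberg adjustment over all of them. At an adjusted p under 0.05, 2.70% of all genes tested were higher and 1.24% lower. Over all 8 libraries none of the 4 tested members was called lower, and 0 by DESeq2. At an unadjusted p under 0.05, 3 members passed (Rhcg, Car12 and Foxi1), all higher, as did 20.9% of all genes in either direction. DESeq2 called 3 members higher, Rhcg, Car12 and Atp6v0d2, where 5.70% of all genes were higher. All 4 UB dko libraries lay above all 4 controls for Rhcg and for Car12, an order that 8.19% of the tested genes showed. In sorted bulk samples, more cells of a type and more RNA per cell cannot be told apart. P-values measure the spread between embryos. The sample titles carry a number that is shared by UB controls 2 to 4, by UB dko 1 and 2, by MM controls 1 and 2 and by MM dko 1 and 2, and never by a control and a dko. What it marks is not given, and it and the genotype cannot be told apart.

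**Figure D1:**
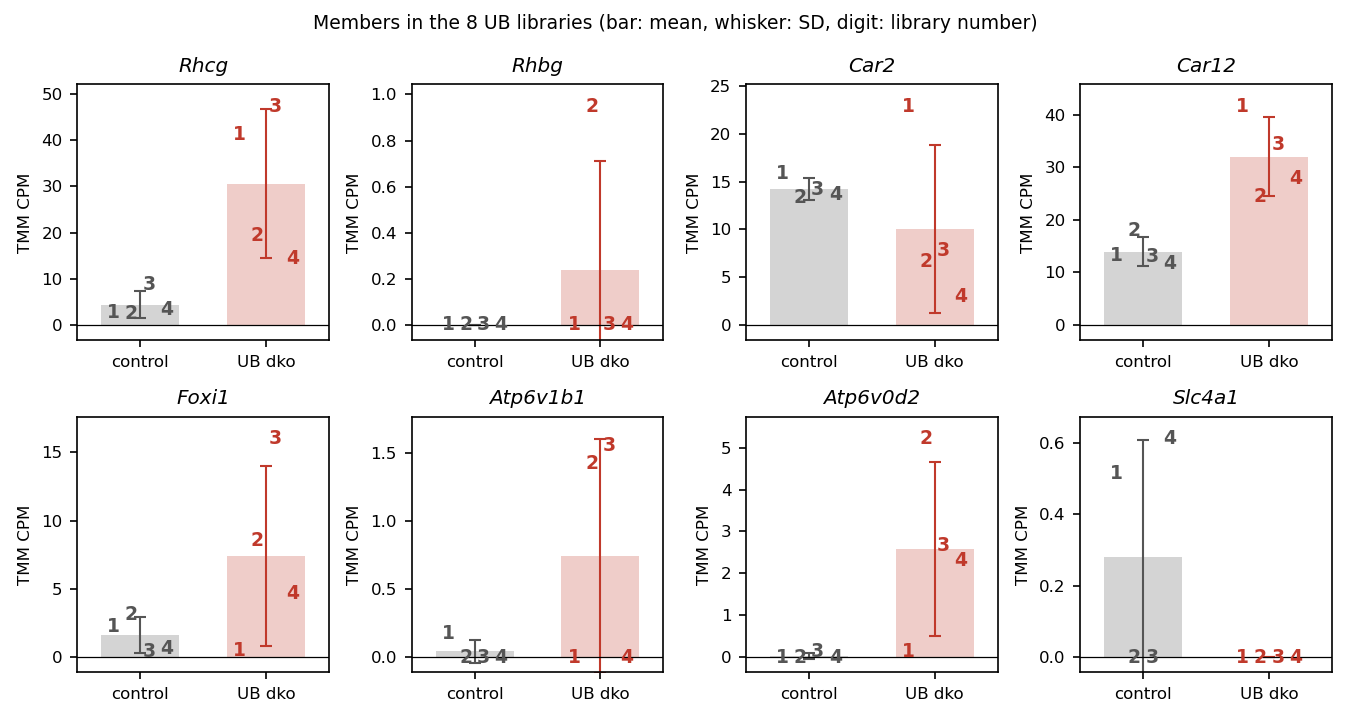
Each panel plots the TMM-normalized CPM of a member in the 4 control and the 4 UB dko libraries, with the bar at the mean, the whisker at 1 SD and each digit at the value of the library with that number. Rhcg and Car12 do not overlap between the groups, and Foxi1 and Atp6v0d2 are high in dko 2, 3 and 4 but not in dko 1.

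Rhcg (ENSMUSG00000030549, GRCm38 chr7:79593363-79617657, minus strand) encodes the ammonia channel of the apical and basolateral membranes of intercalated and other collecting duct cells. Its levels were 2.73, 2.57, 8.69 and 3.36 CPM in UB controls 1 to 4, from 16, 18, 62 and 22 reads. They were 41.3, 19.4, 47.4 and 14.4 CPM in UB dko 1 to 4, from 318, 82, 213 and 87 reads. The lowest dko library was above the highest control, and the libraries labelled dko 1 and dko 3 were the highest of the 8. The fold change was 7.004 (log2FC 2.81, SE 0.53, edgeR adjusted p = 0.0172). With dko 1 and dko 3 alone log2FC was 3.30 (SE 0.44, adjusted p = 7.81e-04), and 4.12% of all genes were higher in this fit. With dko 2 and 4 alone log2FC was 1.94 (SE 0.48, adjusted p = 0.00307), in a fit that called 39.9% of all genes in either direction. Rhcg has 55.4% GC over its longest transcript, in the top of 5 bins. Its log2FC was 3.13 (SE 0.39, edgeR adjusted p = 2.59e-04) once trends with GC content and transcript length were offset in each library. In that fit 6.16% of all genes were higher. The call was lost without control 1, 2 or 4, at log2FC 2.64, 2.62 and 2.70 and adjusted p = 0.0650, 0.0860 and 0.0783. The predicted gene Gm45170 overlaps Rhcg on the same strand, so reads in the overlap may have been left out of both.

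Rhbg (ENSMUSG00000104445, chr3:88242874-88254709, minus strand), the basolateral ammonia transporter of the same cells, was hardly seen. The predicted gene Gm38392 overlaps it on the same strand, so reads in the overlap may have been left out. It had 0 reads in all 4 UB controls and 0, 4, 0 and 0 reads in UB dko 1 to 4. The control zeros allow up to 0.128 CPM (3 reads over the group's total counts, without TMM scaling, counting error only), and the 4 dko reads come from a single library. The exact two-sided permutation p was 1.00, where 4 against 4 libraries can reach 0.0286. Rhag, the erythroid Rh glycoprotein, had 0 reads in every UB and MM library.

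Car12 (ENSMUSG00000032373, chr9:66713686-66766845, plus strand) encodes a membrane-bound carbonic anhydrase with its active site outside the cell. Controls 1 to 4 stood at 13.1, 18, 13 and 11.6 CPM, and UB dko 1 to 4 at 41.6, 24.4, 34.2 and 27.8 CPM. All dko libraries were above all controls, with the library labelled dko 1 the highest. The fold change was 2.29 (log2FC 1.20, SE 0.29, edgeR adjusted p = 0.0431). It was 1.40 on the log2 scale with dko 1 and dko 3 alone (SE 0.30, adjusted p = 0.0118), 0.90 with dko 2 and 4 alone (SE 0.30, adjusted p = 0.0205) and, with the GC and length offsets, 1.25 (SE 0.27, adjusted p = 0.00949). Of all genes, 4.12% were higher with dko 1 and dko 3 alone and 6.16% with the offsets. The fit of dko 2 and 4 alone called 39.9% in either direction. The call is close to the threshold. It was lost without control 1, 2, 3 or 4 (adjusted p = 0.121, 0.110, 0.150 and 0.151), without dko 3 (0.0504) or dko 4 (0.0898), with scaling by library size alone (log2FC 0.87, adjusted p = 0.212), with no filter on low counts (adjusted p = 0.0534) and with the replicate number as a block (log2FC 1.19, adjusted p = 0.140).

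Car2 (ENSMUSG00000027562, chr3:14886273-14900770, plus strand) encodes the cytosolic carbonic anhydrase that supplies protons and bicarbonate in intercalated cells, and it is also abundant in red cells and osteoclasts. The controls were tight, at 15.9, 13.3, 14.2 and 13.6 CPM. UB dko 1 to 4 were at 22.9, 6.64, 7.78 and 2.98 CPM, so the library labelled dko 1 lay above every control and the others below every control. Over all 4 libraries the log2FC was -0.49 (SE 0.53, edgeR adjusted p = 0.643). Without the library labelled dko 1 it was -1.31 (SE 0.41, adjusted p = 0.0673), with dko 2 and 4 alone -1.60 (SE 0.43, adjusted p = 0.00564), and with dko 1 and dko 3 alone 0.08 (SE 0.42, adjusted p = 0.931). In the fit of dko 2 and 4 alone, 39.9% of all genes were called in either direction.

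Foxi1 (ENSMUSG00000047861, chr11:34204338-34208089, minus strand) was low and uneven. Controls 1 to 4 had 13, 22, 3 and 4 reads, or 2.22, 3.14, 0.421 and 0.611 CPM. UB dko 1 to 4 had 4, 36, 72 and 28 reads, or 0.520, 8.54, 16.01 and 4.63 CPM. Dko 2, 3 and 4 lay above every control, and the library labelled dko 1 lay among the lowest controls. The log2FC was 2.19 (SE 0.94, edgeR adjusted p = 0.204). Without the library labelled dko 1 it was 2.58 (SE 0.73, adjusted p = 0.0493), in a fit in which 6.02% of all genes were called higher. With dko 2 and 4 alone, where 39.9% of all genes were called in either direction, it was 2.01 (SE 0.77, adjusted p = 0.0427), and with dko 1 and dko 3 alone 2.31 (SE 1.08, adjusted p = 0.200). With the GC and length offsets its log2FC was 2.45 (SE 0.90, adjusted p = 0.103).

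Atp6v0d2 (ENSMUSG00000028238, chr4:19876841-19922605, minus strand) encodes the d2 subunit of the membrane sector of the proton pump, found in intercalated cells and in osteoclasts. Its reads were 0, 0, 1 and 0 in controls 1 to 4 and 1, 22, 12 and 14 in UB dko 1 to 4. Dko 2, 3 and 4 stood at 5.22, 2.67 and 2.32 CPM, whereas the library labelled dko 1, at 0.130 CPM, was just below control 3, at 0.140 CPM. Summed over the groups, 49 reads against 1 give a ratio of 57.9 (95% interval 9.92 to 2333, exact, for counting error only). The gene did not pass the filter on low counts. The exact two-sided permutation p on its CPM was 0.0571. With no filter its log2FC was 5.46 (SE 1.63, edgeR adjusted p = 0.0334), where 2.09% of all genes were higher, and DESeq2 gave an adjusted p of 0.00450, where 5.70% were higher. Leukocyte and osteoclast transcripts summed to 19.6 to 44.2 CPM over 15 genes in the UB dko and 16.6 to 52.6 CPM in the controls. Of these 15 genes, 1 was at 0 reads in the UB dko, the osteoclast fusion gene Ocstamp, and 0 were in the controls. Acp5, the acid phosphatase of osteoclasts, had 3, 9, 1 and 0 reads in the controls and 0, 2, 0 and 6 in UB dko 1 to 4. The part of such cells in the Atp6v0d2 reads was not tested.

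Atp6v1b1 (ENSMUSG00000006269, chr6:83742990-83758855, plus strand) encodes the B1 subunit of the cytosolic sector, the isoform typical of intercalated cells. It had 1, 0, 0 and 0 reads in the controls and 0, 6, 7 and 0 reads in UB dko 1 to 4. The sums of 13 and 1 reads give a ratio of 15.4 (95% interval 2.31 to 653, exact, for counting error only), carried by dko 2 and the library labelled dko 3. The exact permutation p was 0.429. The broadly used B2 and d1 isoforms were far more abundant. Atp6v1b2 was at 89.8 ± 7.62 CPM in the controls and 112.8 ± 27.6 in the UB dko (SD, n = 4 each, log2FC 0.33, SE 0.20, edgeR adjusted p = 0.386). Atp6v0d1 was at 24.9 ± 2.09 and 38.2 ± 20.98 CPM (log2FC 0.62, SE 0.35, edgeR adjusted p = 0.341), and it was called with GC and length offsets (log2FC 0.89, edgeR adjusted p = 0.0293).

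Slc4a1 (ENSMUSG00000006574, chr11:102348824-102366203, minus strand) encodes the anion exchanger AE1 of red cells, and a shorter form of it lies in the basolateral membrane of acid-secreting intercalated cells. It had 3, 0, 0 and 4 reads in controls 1 to 4 and 0 reads in all UB dko libraries. The dko zeros allow up to 0.118 CPM (3 reads over the group's total counts, without TMM scaling). The reads lay in the controls with the most embryonic globin Hbb-y, which had 43, 4, 0 and 347 reads in controls 1 to 4 and 0, 0, 0 and 4 in UB dko 1 to 4. Of 19 erythroid genes, 11 were at 0 in the controls, Epb42 among them, and 14 in the UB dko, with sums of 0.421 to 56.4 CPM and 0 to 2.89 CPM. The part of red cell RNA in these reads was not tested. The exact permutation p was 0.429.

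**Figure D2:**
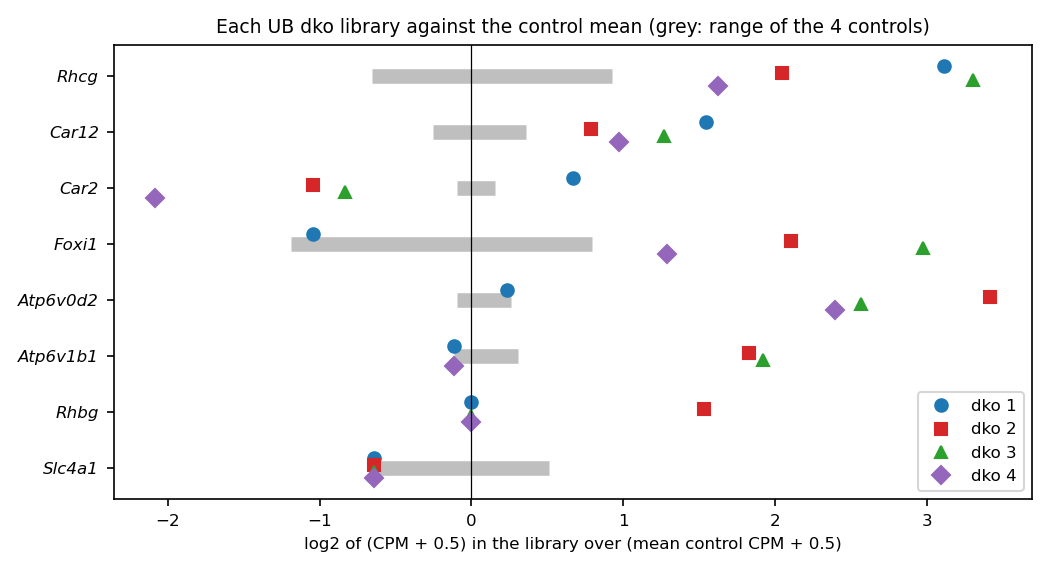
The horizontal axis is the log2 ratio of CPM + 0.5 in each UB dko library to that of the control mean, a marker stands for a dko library and the grey band spans the 4 controls. For Rhcg and Car12 all 4 markers lie right of the band, whereas for Foxi1 and Atp6v0d2 dko 1 lies in the band and dko 2, 3 and 4 lie at 1.29 to 3.42.

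The members did not all vary together across the UB dko libraries. On the scale of the log2 ratio to the control mean with 0.5 CPM added, Rhcg was at 3.11, 2.04, 3.31 and 1.62 in UB dko 1 to 4, and Car12 was at 1.54, 0.79, 1.27 and 0.97. Both were above the control band in every library and highest in the libraries labelled dko 1 and dko 3. Foxi1 was at -1.04, 2.11, 2.98 and 1.29, and Atp6v0d2 at 0.24, 3.42, 2.57 and 2.40, above the band in all but the library labelled dko 1. Car2 was at 0.67, -1.04, -0.83 and -2.08, below the band in all but that library. Over the 8 UB libraries, the log2 CPM of Rhcg and Car12 had a Pearson correlation of 0.87, Car2 and Foxi1 of -0.66, and Rhcg and Foxi1 of 0.34. These are descriptions over 8 libraries in 2 groups that share the genotype difference.

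Further genes of intercalated cells that were too low for the test had most of their reads in dko 2 and the library labelled dko 3, the libraries highest in Foxi1, a group looked at library by library after its values were seen. Of 15 intercalated cell genes other than Foxi1, 2 could be tested and 13 could not. The 13 had 9, 8, 29 and 1 reads in all in UB controls 1 to 4, and 7, 75, 87 and 13 reads in UB dko 1 to 4. Dko 2 had reads in 8 of the 13, the library labelled dko 3 in 7 and dko 4 in 6, against 1 to 4 in each control and 1 in the library labelled dko 1. Control 3, the control with the fewest Foxi1 reads (3), had more reads over the 13 genes than dko 4 (29 against 13). The share of all genes under the filter with reads in these libraries was not computed. Insrr, a receptor kinase that senses alkaline pH, had 0 reads in all controls and 0, 6, 16 and 1 in the dko. Atp6v1c2, a kidney isoform of the pump's C subunit, had 0 reads in all controls and 0, 8, 9 and 1 in the dko. Atp6v0a4, the a4 subunit of intercalated cells, had 3, 0, 19 and 1 reads in the controls and 7, 29, 20 and 5 in the dko, which overlap. Slc4a9, the exchanger AE4 of bicarbonate-secreting cells, had 0, 0, 9 and 0 reads in the controls and 0, 11, 18 and 3 in the dko. Hepacam2 had 2, 4, 0 and 0 reads in the controls and 0, 3, 6 and 0 in the dko, which overlap. Hmx2, Atp6v1g3, Oxgr1 and Avpr1a had 0 reads in all 8 libraries. The tested factor Tfcp2l1, needed for both collecting duct cell types, rose from 406 ± 71.8 to 896 ± 141 CPM (SD, n = 4 each, log2FC 1.14, SE 0.19, edgeR adjusted p = 0.0124), the library labelled dko 1 included at 690 CPM. Kit fell from 70.8 ± 4.98 to 29.1 ± 6.66 CPM (log2FC -1.28, SE 0.22, edgeR adjusted p = 0.0134). Leaving out 1 library at a time kept the call of Tfcp2l1 in 5 of 8 fits and that of Kit in 4 of 8.

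**Figure D3:**
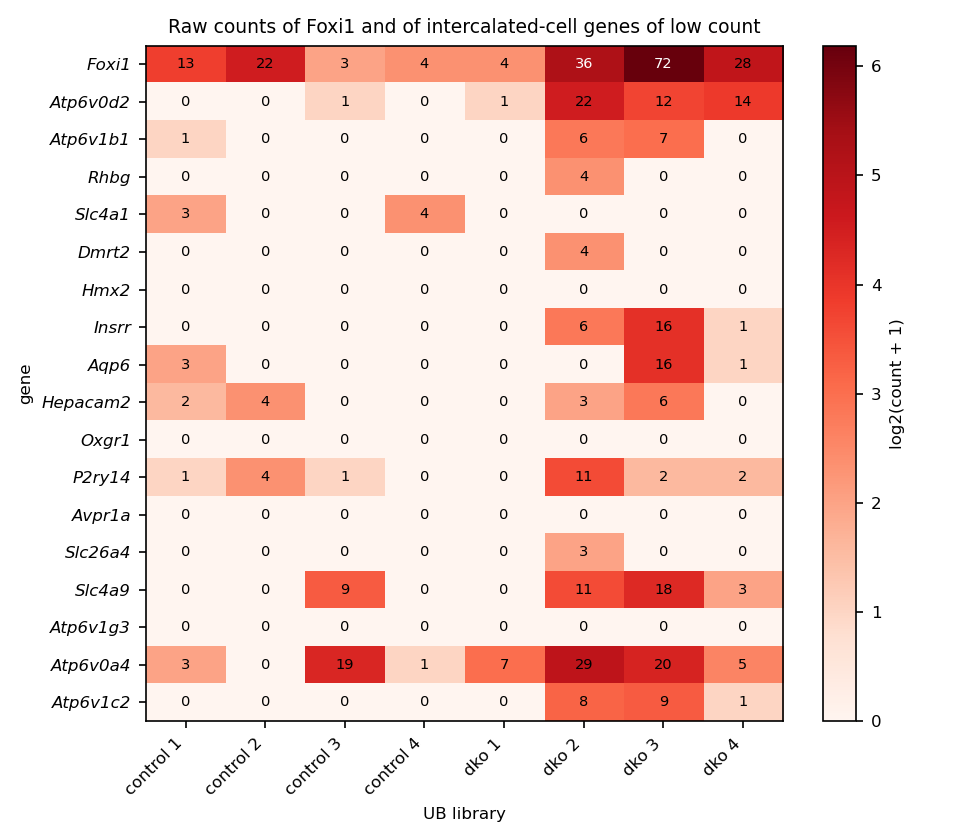
Each cell prints the raw reads of a gene in a UB library, with colour on the log2(count + 1) scale. Reads of the intercalated cell genes gather in dko 2 and dko 3, with 75 and 87 reads over the 13 genes below Slc4a1, against 1 to 29 in the controls.

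The wider pathway was counted from fixed lists that include the members and were chosen with earlier results of these data known. In the UB fit, 2.70% of all genes tested were higher and 1.24% lower. Of 25 proton-pump genes, 19 were tested in the UB, 3 rose, 0 fell and 16 did not pass, with a median log2FC of 0.33 against 0.06 over all genes tested. Atp6ap2, an accessory subunit also known as the prorenin receptor, rose from 55.0 ± 5.09 to 139 ± 53.7 CPM (log2FC 1.34, SE 0.27, edgeR adjusted p = 0.0208). Atp6v1a, the catalytic A subunit, rose from 61.0 ± 11.9 to 132.6 ± 15.6 CPM (log2FC 1.119, SE 0.20, adjusted p = 0.0149). Atp6v1h was the third (log2FC 1.05, SE 0.23, adjusted p = 0.0296). These genes have 40.5%, 44.6% and 37.6% GC, and with GC and length offsets Atp6ap2 and Atp6v1a were called (log2FC 1.03 and 0.94), but Atp6v1h was not (0.61, adjusted p = 0.0691). Those offsets added Atp6v0d1 and Atp6ap1, another accessory subunit (log2FC 0.67, adjusted p = 0.0210), which made 4 genes higher. With scaling by library size alone, which moved the median of all genes from 0.06 to -0.28, 0 of the 19 were called and 0.432% of all genes were higher.

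Of 16 carbonic anhydrases 7 were tested and 2 rose, Car12 and Car8, while 5 did not pass. Beside this and the next lists stand 2.70% of all UB genes higher and 1.24% lower. Car8, a family member without enzyme activity, rose from 2.86 ± 1.13 to 15.7 ± 5.83 CPM (SD, n = 4 each, log2FC 2.45, SE 0.47, edgeR adjusted p = 0.0177). The median of the 7 was 1.20, which is the log2FC of the member Car12 itself. Of 10 ammonia genes 4 were tested and 2 rose, Rhcg among them. Of 19 bicarbonate and acid exchange genes 10 were tested and 1 rose, Clcn5, an endosomal chloride-proton exchanger (138 ± 9.07 to 265 ± 47.9 CPM, log2FC 0.94, SE 0.18, edgeR adjusted p = 0.0199). The median of the 10 was 0.08. Of 12 principal cell genes, the water and sodium cells that lie beside intercalated cells, 10 were tested and 2 rose. These were the factor Elf5 (log2FC 1.70, SE 0.31, adjusted p = 0.0165) and the sodium channel subunit Scnn1b (log2FC 1.69, SE 0.41, adjusted p = 0.0434), and the list's median was 1.69. The sum over the 12 was 80.8 to 109.9 CPM in the controls and 188 to 307 CPM in the UB dko. Every dko library was above every control, an order that 8.19% of single tested genes showed. Aqp2 and Kcnj1, which define mature principal cells, had 0 reads in every UB library. Of the 12 ureteric epithelium genes 1 fell, the receptor Ret (343.9 ± 14.1 to 105.4 ± 27.3 CPM, log2FC -1.70, SE 0.21, edgeR adjusted p = 0.00306). None of the tested nephron progenitor (4), leukocyte (5), stromal (4) and endothelial (5) markers was called in the UB.

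Several of these counts moved with the fit. With GC and length offsets, where 6.16% of all genes were higher and 4.04% lower, 7 of the 10 principal cell genes rose, 5 of the 12 ureteric genes rose and 2 fell, 3 of the 7 carbonic anhydrases rose, and 2 of the 10 exchange genes rose and 1 fell. With dko 1 and dko 3 alone, where 4.12% were higher and 3.89% lower, 5 of 20 proton-pump, 5 of 10 principal cell, 1 of 8 carbonic anhydrase and 1 of 6 ammonia genes rose. In that fit 3 of 12 ureteric genes rose and 3 fell, 1 of 10 exchange genes rose and 1 fell, and 2 of 6 endothelial genes fell. With dko 2 and 4 alone, where 39.9% were called in either direction, 5 of 21 proton-pump genes rose and 1 fell, 3 of 8 carbonic anhydrases rose and 1 fell, 2 of 6 ammonia genes rose, and 2 of 10 exchange genes rose and 1 fell. Of the marker lists in that fit, 4 of 10 principal cell genes rose, 1 of 12 ureteric genes rose and 6 fell, and 1 of 4 nephron progenitor and 1 of 4 stromal genes fell. With library size scaling 0 of the principal cell, 0 of the exchange, 1 of the carbonic anhydrase and 1 of the ammonia genes rose. Leaving out 1 library at a time kept Ret in 8 of 8 fits, Atp6v1a, Atp6ap2, Car8, Clcn5 and Elf5 in 3 and Scnn1b in 2.

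**Figure D4:**
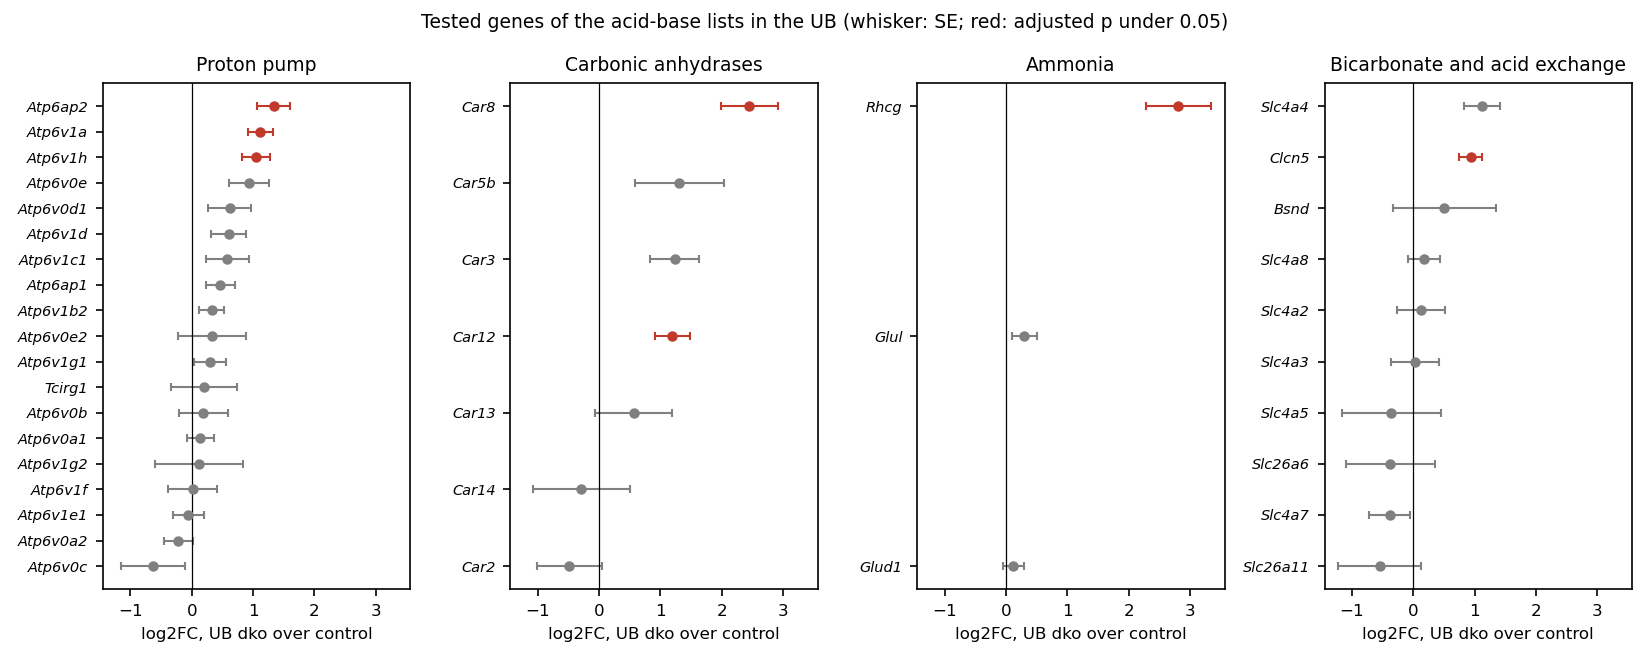
Each point is the log2FC of UB dko over control for a tested gene of 4 lists, 1 ammonia gene left out, with its SE as the whisker and red for an adjusted p under 0.05. Of 19 proton-pump genes 16 lie above 0 and 3 are red, and Rhcg (2.81) and Car8 (2.45) lie farthest right.

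In the MM all members but Car12 had few or no reads. Rhcg, Rhbg, Foxi1 and Atp6v1b1 had 0 reads in all 6 libraries. This allows up to 0.164 CPM in the MM controls and 0.377 CPM in the MM dko (3 reads over the group's total counts, without TMM scaling). The UB control mean of Rhcg was 26.5-fold the MM control limit (17.6-fold without UB control 3). That of Foxi1 was 9.76-fold the limit (6.61-fold without UB control 2). The tables of the tissues were normalized separately, and the UB means are TMM-scaled whereas the limit is not. Slc4a1 had 0, 3 and 1 reads in the controls and 0, 0 and 1 in the MM dko. Atp6v0d2 had 8, 0 and 0 reads in the controls and 0 in the MM dko. Car2 had 4, 11 and 0 reads in the controls and 17, 0 and 10 in the MM dko, or 0.591, 1.62 and 0 against 5.99, 0 and 3.69 CPM, and the groups overlapped (exact permutation p = 0.400, where 3 against 3 cannot go below 0.100). Car12 was the only member with enough counts for the test. It stood at 3.84, 6.46 and 7.36 CPM in MM controls 1 to 3 and at 3.17, 3.07 and 7.74 CPM in MM dko 1 to 3, with overlap. Its log2FC was -0.30 (SE 0.57, edgeR adjusted p = 0.678). Of 12431 genes tested in the MM, 52.9% were called in either direction, and the 1 member tested was not among them (0 called by edgeR and 0 by DESeq2, and 0 at an unadjusted p under 0.05, which 58.6% of all genes passed). Ureteric epithelium markers summed to 235 to 290 CPM in the MM controls and 158 to 193 CPM in the MM dko, and principal cell markers to 52.6 to 63.1 and 14.4 to 28.0 CPM, with no overlap in either. The share of all MM genes without overlap was not computed. Pax2 made up most of the ureteric sum, at a mean of 164 CPM in the controls and 104 CPM in the MM dko. Hsd11b2 made up most of the principal cell sum, at 52.8 and 17.5 CPM. Ret was below 1 CPM in every MM library. Of the marker lists in the MM, the tested genes called were 1 of 1 principal cell gene (Hsd11b2, log2FC -1.59), 2 of 6 ureteric genes (Pax2 at -0.65 among them), 3 of 8 nephron progenitor genes (Eya1 0.77, Osr1 -1.07 and Cited1 -1.52) and 2 of 7 stromal genes (Foxd1 1.5 and Pdgfrb -2.33), and none of the intercalated cell (1), erythroid (1), leukocyte (1) and endothelial (3) genes. With GC and length offsets Hsd11b2, Pax2, Osr1 and Cited1 changed sign, at 0.17, 1.53, 0.57 and 0.96.

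Whether dko acted differently on a member in the UB and the MM was tested as an interaction over 15225 genes, 6.14% of which were called. Car12 rose by 1.47 more on the log2 scale in the UB than in the MM (SE 0.57, edgeR adjusted p = 0.115). For Car2 the difference was -2.76 (SE 1.19, edgeR adjusted p = 0.152). Neither passed the adjusted test. With no filter on low counts Car2 and Atp6v0d2 passed, in a fit that called 6.42% of all genes. Genes at 0 in all MM libraries have no MM fold change to compare.

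Of 25 proton-pump genes, 19 were tested in the MM. Of the 19, 10 fell, 4 rose and 5 did not pass, where 52.9% of all MM genes were called, with a median log2FC of -0.78 against -0.05 over all genes. Atp6v0d1 fell from 40.4 ± 8.60 to 11.04 ± 4.75 CPM (SD, n = 3 each, log2FC -1.94, SE 0.34, edgeR adjusted p = 3.19e-04). Atp6v0c, which forms the proton-carrying ring, fell from 24.5 ± 2.38 to 6.81 ± 2.32 CPM (log2FC -1.90, SE 0.36, edgeR adjusted p = 6.37e-04). Atp6v1a rose (log2FC 0.75, SE 0.18, adjusted p = 0.00361), as did Atp6v1h (log2FC 0.80, SE 0.21, adjusted p = 0.00500), and Atp6v1b2 fell (log2FC -0.78, SE 0.23, adjusted p = 0.0103). Atp6v0d1 and Atp6v0c have 53.4% and 52.0% GC, and Atp6v1a and Atp6v1h have 44.6% and 37.6%. With GC and length offsets 4 fell and 0 rose, 21.9% of all genes being called in either direction, and the log2FC of Atp6v1h turned to -0.86 (adjusted p = 0.0128). Atp6v0c was -1.13 (adjusted p = 0.0268) and Atp6v0d1 -0.84 (adjusted p = 0.0701).

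**Figure D5:**
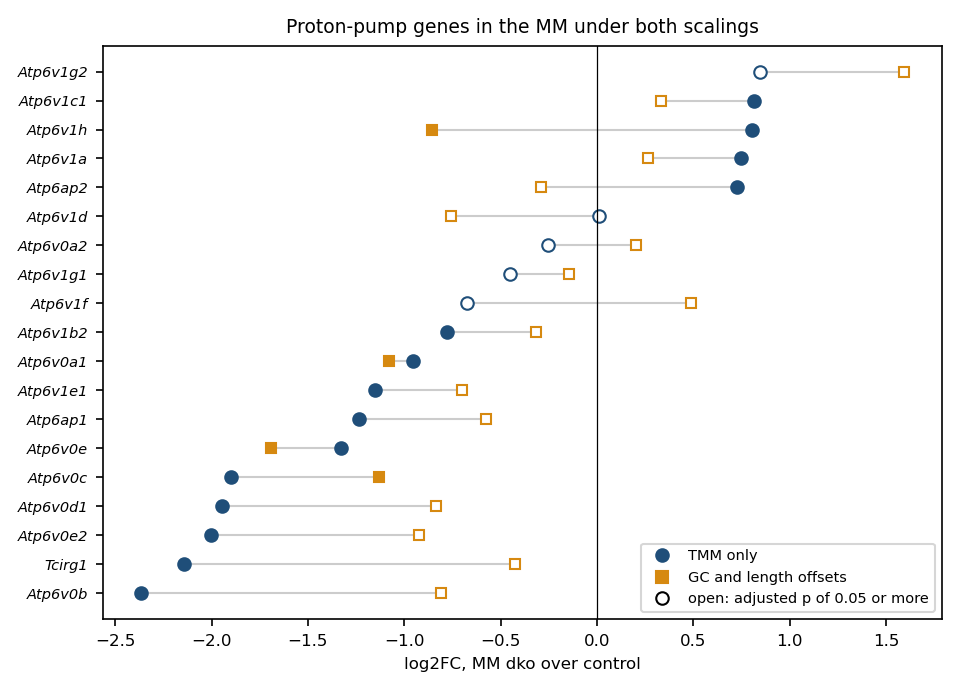
The axis is the log2FC of MM dko over control for the 19 tested proton-pump genes, with circles for TMM scaling alone and squares for the fit with GC and length offsets, filled where the adjusted p is under 0.05. Filled circles number 14 and filled squares 4, and Atp6v1h moves from 0.80 to -0.86.

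In the MM, of 8 tested bicarbonate and acid exchange genes 3 rose and 1 fell, a share near the 52.9% of all genes called there. With GC and length offsets 1 rose and 1 fell. Slc4a7, a sodium-bicarbonate cotransporter, rose (log2FC 1.48, SE 0.18, edgeR adjusted p = 2.34e-05; 0.54 with GC and length offsets, adjusted p = 0.0108). Slc4a4, the cotransporter of the proximal tubule, rose by 1.23 (SE 0.33, adjusted p = 0.00656), and the anion exchanger Slc4a3 had -2.52 (SE 0.45, adjusted p = 4.10e-04). With the offsets these were 0.92 (adjusted p = 0.0563) and -1.24 (adjusted p = 0.0588). The anion exchanger Slc26a7 went from 1.1 (SE 0.39, adjusted p = 0.0283) to -0.54 (adjusted p = 0.345) with the offsets, and Clcn5 from -0.21 (adjusted p = 0.365) to -0.69 (adjusted p = 0.0203).

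The genes most like each tested member over the 8 UB libraries were sought among 7831 tested genes with a mean of at least 100 normalized counts. For Rhcg they were Anxa2 (Pearson r = 0.98 on log2 CPM) and Sort1 (0.97), for Car12 Gpx8 (0.98) and Wdr47 (0.98), for Foxi1 Ikbkg (0.96) and Cpped1 (0.95), and for Car2 Zfp821 (0.96) and Lmf1 (0.95). With 8 libraries in 2 groups and so many genes searched, values this high are a description of the libraries. Anxa2, a calcium-dependent membrane-binding protein, itself rose in the UB dko (log2FC 2.50, edgeR adjusted p = 0.00952).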

How the data were processed

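RNA of GFP-sorted UB and MM cells was made into libraries with the NuGen Ovation Solo kit, ribosomal sequences being removed after library generation. Per the labels and methods, single-end reads went through Trimmomatic, STAR (GRCm38) and featureCounts with the GENCODE M23 annotation. The deposited count values are raw whole numbers for each gene, in 1 table for each tissue. Use of strand in counting is not given in the sources used here. The submitters' notes also list HISAT2, HTSeq and DESeq2 with no role.

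Gene names, coordinates, exon lengths and GC content came from GENCODE M21 (GRCm38), which named 55154 of 55335 UB and 52489 of 52636 MM identifiers. GC content is that of the longest transcript of each gene. Each tissue was fitted by edgeR 4.0.16 in R 4.3.3 with filterByExpr (minimum count 10, minimum total 15), TMM and the robust quasi-likelihood test, dko against control, with Benjamini-Hochberg adjustment and a threshold of 0.05. The SE is the size of log2FC over the square root of F. CPM use TMM effective library sizes. Log2 CPM for correlations and for the GC trend used a prior count of 2, and the trend is the lowest minus the highest of 5 GC bins against the control mean. Members under the filter were compared by exact two-sided permutation of CPM, and ratios of summed reads have exact 95% binomial intervals. Limits for zeros are 3 reads over the group's total counts, without TMM scaling, and, like the intervals, cover counting error only.

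The members, the 12 further lists and the tests were chosen with earlier results of these data known. Named by rule were the members, from each list the 2 genes of smallest adjusted p in each direction, 3 paralogues and the 2 genes most like each tested member. Alternatives were DESeq2 1.42.0, RLE or library size scaling, other filters, a replicate block, GC and length offsets (splines of 4 degrees of freedom), each library left out and UB dko 1 and 3 alone. UB dko 2 and 4 alone was added after seeing the data. The fit was also run on counts simulated from control means and library sizes. These held no GC trend and no raised share of Gm42418, so that run does not cover them. Coordinates cover whole genes. A few genes of these lists are not reported here.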

Additional observations from a re-analysis of the deposited data

Results flagged for a closer look

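Rhcg in UB control 3, at 8.69 CPM, stood apart from the other controls, at 2.57 to 3.36 CPM. The gap to the nearest control was 0.871 of the group's range, above the 95% critical value of Dixon for 4 samples, and chance alone passes it in about 1 in 20 groups. Without that library the log2FC of Rhcg in the UB was 3.39 (SE 0.53, edgeR adjusted p = 0.0284). No other member with at least 10 reads in a library passed this limit in the UB groups, and groups of 3 were not looked at in this way. No member's difference between the tissues passed the adjusted test.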

How the results depend on the processing

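The direction of Rhcg, Car12 and Foxi1 in the UB and of Car12 in the MM held in every alternative run. Car2 in the UB reversed in 1, dko 1 and dko 3 alone (log2FC 0.083). The number of UB members called higher, 2, was 1 with library size scaling and 1 with the replicate block, 4 with dko 2 and 4 alone (Rhcg, Car12, Foxi1 and Atp6v0d2), and 0 to 3 with 1 library left out. Members called lower numbered 0 except for 1 with dko 2 and 4 alone, Car2. Over all UB genes, 362 higher and 166 lower became 883 and 525 with DESeq2, 58 higher with library size scaling, 591 and 326 without a filter, 54 and 13 with the block, 827 and 542 with GC and length offsets, 600 and 425 with offsets and block, 601 and 567 with dko 1 and dko 3 alone, 2921 and 2920 with dko 2 and 4 alone, and 33 to 835 and 7 to 567 with 1 library left out. Of the UB calls 68.6% were higher, and 20.9% with library size scaling. In the MM, 3105 higher and 3465 lower became 1871 higher with library size scaling, 1352 and 1368 with the offsets, 1254 and 1235 with offsets and block, and 2491 to 3295 and 2758 to 3664 with 1 library left out. The share higher went from 47.3% to 28.5% with library size scaling. Members with a tissue difference numbered 0 except for 2 without a filter, Car2 (adjusted p = 0.0447) and Atp6v0d2 (adjusted p = 0.0250), and 0 to 0 with 1 library left out. Of the UB members under the filter, 0 passed the exact test under every scaling, and leaving out a library was not run for them. The cause of these shifts was not tested.

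Same-numbered UB libraries did not deviate together (correlations of -0.28, -0.09, 0.12 and -0.06 for numbers 1 to 4, and -0.06 to -0.02 in the MM). With so few libraries in a group, these correlations cannot decide whether the numbers pair the samples. With the replicate block Rhcg was 2.82 (adjusted p = 0.0297) and Car12 1.19 (adjusted p = 0.140). Rhbg, Atp6v1b1, Atp6v0d2 and Slc4a1 in both tissues, and all members but Car12 in the MM, had too few reads for the filter. Low depth and absent expression were not told apart.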
